A study of Homo sapiens with 18 samples.

Results

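The genes described here are REST, a transcriptional repressor of neuronal genes, and 8 genes that mark neuroendocrine cells, INSM1, CHGA, CHGB, SYP, ENO2, SCG2, SCG5 and NTS. These 9 genes were found by symbol among the 60675 Ensembl genes listed in every library, of which 43853 had at least 1 count. Each of the 9 had a count in at least 1 library, but 6 of them averaged under 1 CPM, the unit for counts scaled to library size that is used throughout.

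RNA Seq was performed in 2 prostate cancer cell lines, LNCaP, which depends on androgen, and C4-2, which was derived from it and grows without androgen. Both are established lines sequenced in bulk, and the cells were grown for the treatment in medium with hormone-depleted serum. Each line had 3 groups of 3 libraries. The control group had received a scrambled, non-targeting siRNA pool (siScr) and vehicle. A further group had siScr and the androgen derivative R1881 (1 nM for 72 h). The dual knockdown group had R1881 at the same dose and time with ON-TARGETplus siRNA pools against KDM1A and KDM7A, which encode histone demethylases. No library had only 1 of these genes knocked down, and dual knockdown with vehicle was not analysed here. The vehicle was DMSO in the sequencing methods and ethanol in the culture methods. The labels of the C4-2 vehicle libraries disagree, with C4-2 in the title and LNCaP in another field. Grouping followed the title, and over all genes each of these libraries correlated at 0.938 or more (log2 CPM) with the C4-2 R1881 libraries and at 0.915 or less with the LNCaP libraries.

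REST binds a DNA element called RE1 in neuronal genes and brings corepressors there, among them the CoREST complex that holds KDM1A. In neuroendocrine prostate cancer, which can follow androgen-directed treatment, REST activity is typically reduced. Chromogranins, secretogranins, synaptophysin (SYP) and neuron-specific enolase (ENO2) are then present, as they are in nerve and endocrine cells. INSM1 encodes a neuroendocrine transcription factor that itself binds KDM1A. The comparison therefore concerned whether these genes differed when KDM1A and KDM7A were both lowered, and whether they differed with androgen.

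Library depth was 3182604 to 20154243 counts with a median of 18117641, and the smallest library was C4-2 vehicle replicate 3. All 10 luminal prostate markers averaged at least 1 CPM, with a summed level of 1812 to 13231 CPM per library. Of 6 neuroendocrine markers, only SYP averaged at least 1 CPM, and their summed level was 0.583 to 3.80 CPM per library. KDM1A averaged 108 CPM with siScr and R1881 and 51.6 CPM with dual knockdown in LNCaP (edgeR log2FC −1.05, adjusted p = 1.42e-07). In C4-2 its means were 142 and 16.4 CPM (log2FC −3.12, adjusted p = 9.78e-10). KDM7A averaged 59.7 and 30.9 CPM in LNCaP (log2FC −0.93, adjusted p = 4.66e-05) and 120.5 and 21.2 CPM in C4-2 (log2FC −2.51, adjusted p = 9.39e-09). The knockdown libraries of both genes did not overlap the R1881 libraries in either line. The reduction was larger in C4-2 (difference −2.04 for KDM1A, edgeR adjusted p = 2.36e-09, and −1.56 for KDM7A, adjusted p = 6.06e-07).

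The 9 genes fell into 3 ranges of level. To set genes side by side, CPM was divided by exon length in kilobases (kb). REST averaged 11.4 CPM per kb over the 18 libraries, a level above that of 89.9% of the genes with a count. ENO2 averaged 6.91 CPM per kb and was above 85.4% of those genes. SYP followed at 0.378 CPM per kb, above 59.1%, and SCG5 at 0.220 CPM per kb, above 53.4%. The remaining 5 genes were lower, with SCG2 at 0.0896, NTS at 0.0373, CHGA at 0.0338, INSM1 at 0.0177 and CHGB at 0.00591 CPM per kb. In these 2 lines REST and ENO2 thus stood above the other 7 genes.

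**Figure D1:**
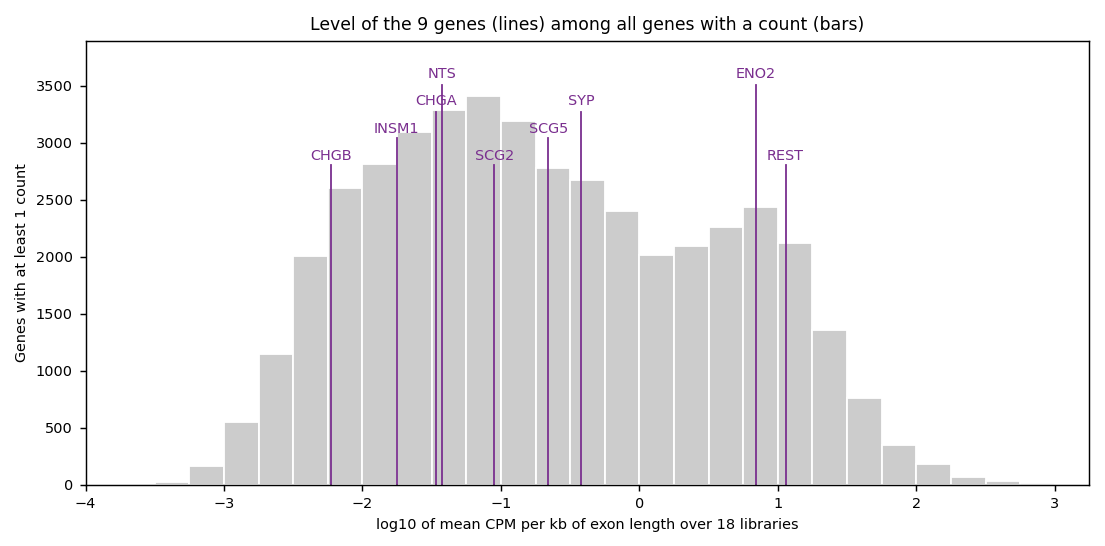
Histogram of the mean level of all genes with a count, on the log10 scale of CPM per kb of exon length over 18 libraries, with vertical lines at the 9 genes. REST (11.4 CPM per kb) and ENO2 (6.91) lie in the upper mode, and the other 7 genes lie between 0.00591 and 0.378.

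REST is encoded at chr4:56907876-56935844 on the plus strand (GRCh38), and its transcript was counted in all 18 libraries, 26856 counts in total. In LNCaP its level was 108, 110 and 94.6 CPM with vehicle, 103, 127 and 115 CPM with R1881, and 89.0, 95.1 and 97.7 CPM with dual knockdown. In C4-2 it was 71.6, 81.4 and 90.6 CPM with vehicle, 84.5, 74.5 and 78.3 CPM with R1881, and 59.8, 76.01 and 70.8 CPM with dual knockdown. The group means ran from 115 CPM in LNCaP with R1881 through 104, 93.9, 81.2 and 79.1 CPM down to 68.9 CPM in C4-2 with dual knockdown. Each group's libraries overlapped those of the next in that order, so neighbouring groups did not separate, while the ends of the order did.

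ENO2, the neuronal form of the glycolytic enzyme enolase, lies at chr12:6913745-6923698 on the plus strand. In LNCaP it measured 53.8, 45.0 and 48.6 CPM with vehicle, 34.1, 33.0 and 45.8 CPM with R1881, and 38.0, 41.8 and 43.7 CPM with dual knockdown. In C4-2 the values were 20.2, 20.4 and 19.2 CPM with vehicle, 16.5, 19.7 and 13.6 CPM with R1881, and 14.6, 11.6 and 12.9 CPM with dual knockdown. Every LNCaP library was above every C4-2 library. Within LNCaP the vehicle group did not overlap the dual knockdown group, and within C4-2 neighbouring groups overlapped. The span of ENO2 overlaps LRRC23 on the same strand, and read pairs from shared exons could not be told apart.

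SYP encodes synaptophysin, a membrane protein of small synaptic vesicles, at chrX:49187804-49200259 on the minus strand. Its 600 counts gave 1.37 to 2.89 CPM with vehicle, 1.95 to 3.39 CPM with R1881 and 2.56 to 3.42 CPM with dual knockdown in LNCaP. The same groups of C4-2 had 0.583 to 1.55 CPM, 1.29 to 1.84 CPM and 1.48 to 2.41 CPM. Neighbouring groups overlapped throughout, and in both lines the mean was lowest with vehicle and highest with dual knockdown. The counting used no strand, so read pairs from stretches where SYP-AS1 overlaps SYP on the opposite strand could not be told apart.

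Among the granule proteins, SCG5, a chaperone of the prohormone convertase PCSK2, had 146 counts and was the only one whose groups stood apart between the lines. It lies at chr15:32641676-32697098 on the plus strand, where AC123768.1 overlaps it on the other strand. In the 9 LNCaP libraries it had 1 to 6 counts, or 0.0575 to 0.278 CPM. In C4-2 it had 0.725, 0.458 and 0.583 CPM with vehicle, 0.550, 0.731 and 0.734 CPM with R1881, and 1.12, 1.098 and 1.18 CPM with dual knockdown. All C4-2 libraries were above all LNCaP libraries, and the 3 dual knockdown libraries of C4-2 were above the other 6. The 0.583 CPM of C4-2 vehicle replicate 3 was 2 counts.

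The other granule proteins were close to the limit of detection. SCG2, a secretogranin (chr2:223596940-223602503, minus strand), had 78 counts in 16 of 18 libraries and at most 0.660 CPM. CHGA, the chromogranin used in diagnosis of neuroendocrine tumours (chr14:92923080-92935293, plus strand), had 33 counts in 14 libraries and at most 0.362 CPM. CHGB, its relative (chr20:5911430-5925361, plus strand), had 8 counts in 5 libraries and at most 0.219 CPM. At this depth 1 library held 0 to 12 counts of any of these 3 genes.

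NTS, which encodes the peptide neurotensin (chr12:85874295-85882992, plus strand), had 17 counts in all, and 16 of them were in LNCaP with vehicle. The 3 vehicle libraries had 5, 6 and 5 counts, or 0.438, 0.278 and 0.275 CPM. LNCaP with R1881 had 1 count in replicate 1 and 0 in the others, and the remaining 12 libraries had 0. A count of 0 over a group of 3 libraries allows up to 3 counts, which was 0.0563 CPM in LNCaP with dual knockdown, 0.0746 CPM in C4-2 with vehicle, 0.0573 CPM in C4-2 with R1881 and 0.0566 CPM in C4-2 with dual knockdown. INSM1 (chr20:20368121-20370949, plus strand) had 15 counts in 7 libraries. They were 0, 1 and 0 with vehicle, 1, 3 and 0 with R1881, and 4, 2 and 3 with dual knockdown in LNCaP, and a single count in the 9 C4-2 libraries. All of these intervals and floors cover counting error only.

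**Figure D2:**
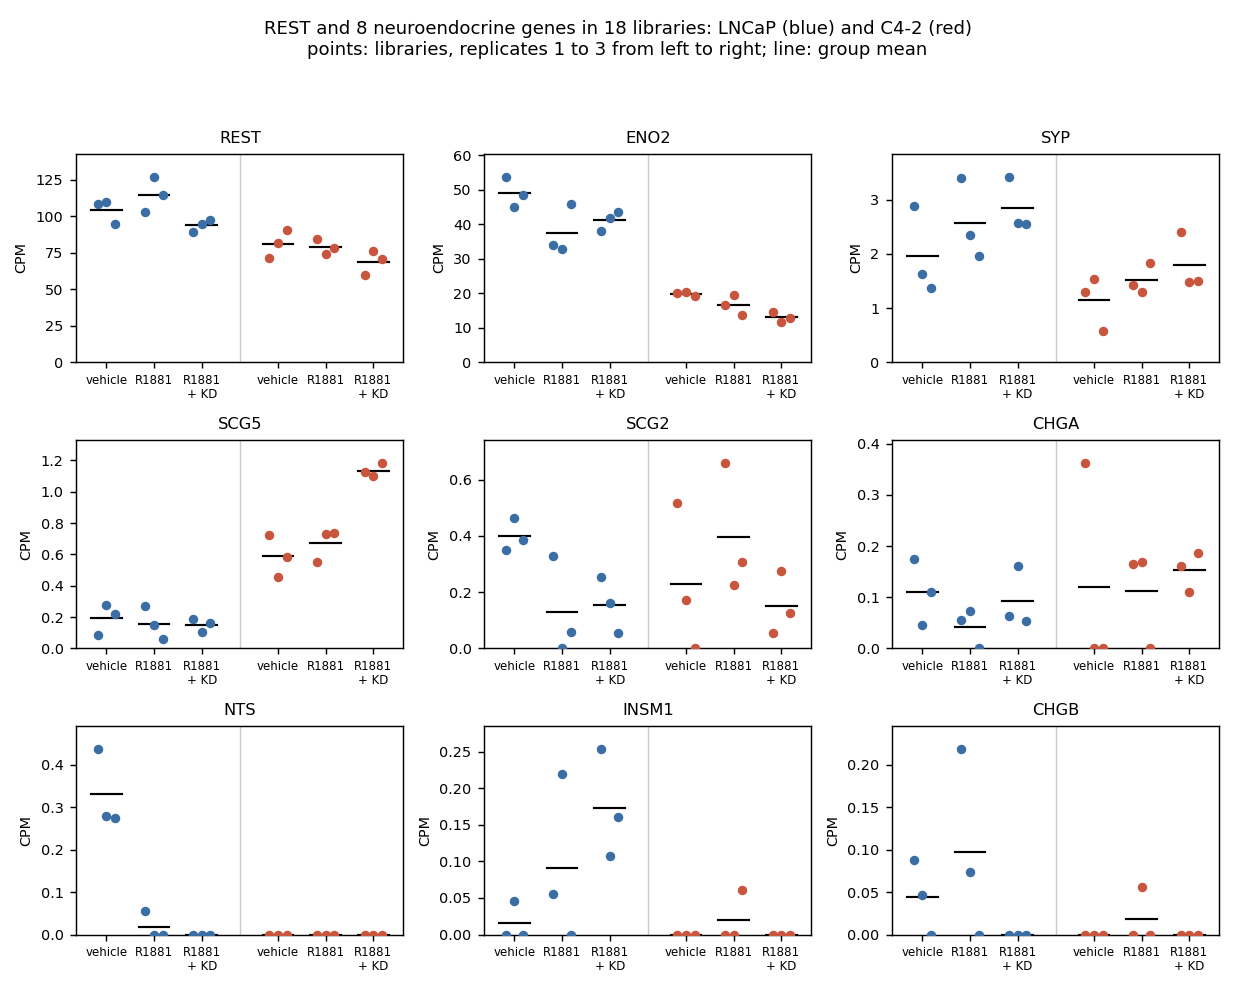
CPM of the 9 genes in each of 18 libraries (points) with group means (lines), LNCaP in blue and C4-2 in red, KD meaning dual knockdown. Each panel has its own linear axis from 0, so that REST reaches 127 CPM while CHGB reaches 0.219 CPM, and NTS counts sit almost wholly in LNCaP with vehicle.

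Testing was possible for the genes with enough counts. REST, SYP and ENO2 passed the filter on low counts in the LNCaP fit, and SCG5 passed with them in the C4-2 fit and in the fit of both lines, so that 5 to 6 of the 9 genes had no test. Differential expression required an adjusted p under 0.05 in edgeR's quasi-likelihood test together with a log2FC of at least 1 in size, and a gene is said to have risen or fallen when it passed the adjusted p. The labels do not say whether the 3 libraries of a group came from separate cultures, so p-values measure the spread between these libraries, which may be technical. In bulk RNA, fewer cells with a transcript and less of it per cell cannot be told apart.

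The first comparison was dual knockdown against siScr, both with R1881. In LNCaP, 0 of the 3 tested genes were differentially expressed by edgeR or by DESeq2, and 1 had an unadjusted p under 0.05, where 0.286% of all 17162 tested genes were differentially expressed. REST fell, from 115 ± 11.96 to 93.9 ± 4.48 CPM (SD, n = 3), with a log2FC of −0.27 (SE 0.0778, 95% CI −0.43 to −0.11, edgeR adjusted p = 0.0298). Its libraries did not overlap between the groups, and by adjusted p alone 14.2% of all tested genes passed. The fall was lost in 4 of 9 fits that left out 1 library, namely R1881 replicate 2 or 3 or dual knockdown replicate 1 or 2, with adjusted p between 0.0113 and 0.154 over the 9.

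ENO2 and SYP did not pass in LNCaP. ENO2 had a log2FC of 0.15 (95% CI −0.09 to 0.38, edgeR adjusted p = 0.42) and SYP of 0.16 (95% CI −0.45 to 0.76, adjusted p = 0.771). For ENO2 the interval leaves no room for a change of 2-fold, and for SYP it is wider. Of the untested genes, INSM1 had 9 counts with dual knockdown and 4 with R1881 alone, a ratio of 2.09 (95% exact interval 0.582 to 9.27). CHGB had 0 counts with dual knockdown and 4, 1 and 0 counts with R1881 alone, and the 95% exact interval of the ratio (0 to 1.01) includes 1.

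In C4-2, where KDM1A and KDM7A were reduced further, 0 of the 4 tested genes were differentially expressed by edgeR or DESeq2, and 2 had an unadjusted p under 0.05. Over all 16965 tested genes 3.94% were differentially expressed and 23.5% passed the adjusted p alone. ENO2 had a log2FC of −0.36 (SE 0.132, 95% CI −0.64 to −0.07, edgeR adjusted p = 0.0654), and REST of −0.20 (SE 0.107, 95% CI −0.43 to 0.02, adjusted p = 0.193). SCG5 had a log2FC of 0.75 (SE 0.331, 95% CI 0.04 to 1.45, adjusted p = 0.122), from 0.672 ± 0.105 to 1.14 ± 0.0444 CPM (SD, n = 3). Although its libraries did not overlap, the exact permutation test of 3 libraries against 3 cannot go below p = 0.1, which is the p it gave. SYP had a log2FC of 0.24 (95% CI −0.42 to 0.90, adjusted p = 0.63). SCG2, which was not tested, had 8 counts with dual knockdown and 21 with R1881 alone, 2.66 times as many (95% exact interval 1.13 to 6.94), in libraries that overlapped, and 12 of the 21 were in R1881 replicate 1.

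The effect of dual knockdown was then compared between the lines in a fit of all 18 libraries. No difference passed, with 0 of 4 tested genes differentially expressed by edgeR or DESeq2 and 1 at an unadjusted p under 0.05, against 1.99% of all tested genes. ENO2 had the largest difference relative to its error, a log2FC in C4-2 lower by 0.48 than in LNCaP (C4-2 minus LNCaP −0.48, SE 0.184, 95% CI −0.86 to −0.10, edgeR adjusted p = 0.101). For REST the difference was 0.09 (adjusted p = 0.749). Dual knockdown thus gave a lower REST estimate in both lines with no detectable difference between them, although REST fell past the adjusted p only in LNCaP.

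**Figure D3:**
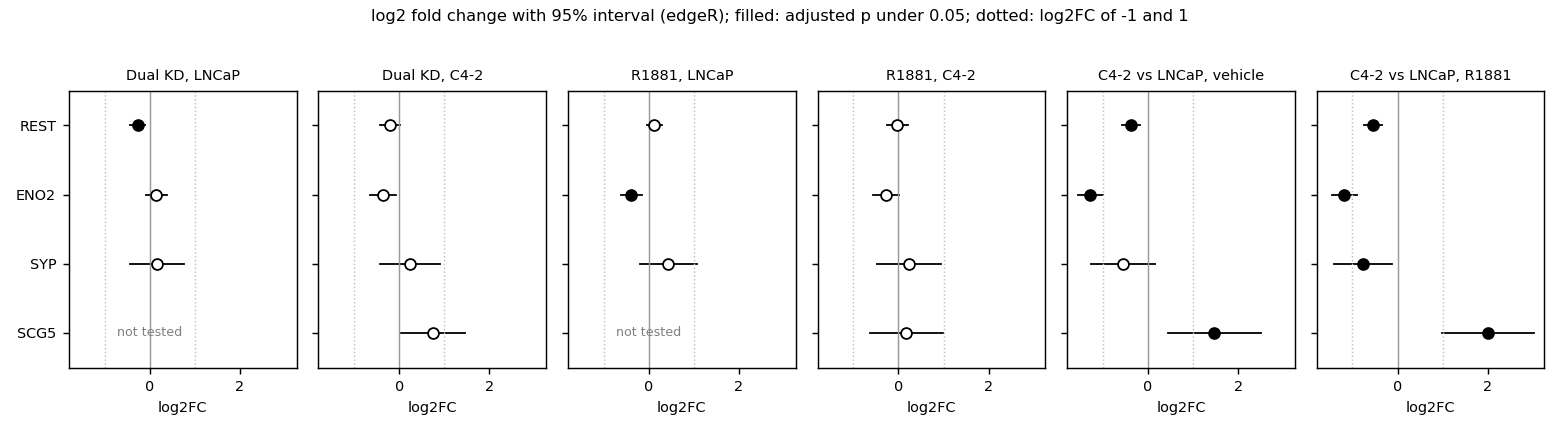
Log2 fold change of the 4 genes that could be tested, with 95% intervals from edgeR, in 6 comparisons sharing 1 axis. Filled points passed an adjusted p of 0.05, and only ENO2 and SCG5 between the lines also passed a log2FC of 1 in size.

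The next comparison was R1881 against vehicle, both with siScr. In LNCaP, 0 of 3 tested genes were differentially expressed by edgeR or DESeq2, and 1 had an unadjusted p under 0.05, where 12.3% of all tested genes were differentially expressed. ENO2 fell from 49.2 ± 4.41 to 37.6 ± 7.10 CPM (SD, n = 3), with a log2FC of −0.39 (SE 0.110, 95% CI −0.63 to −0.16, edgeR adjusted p = 0.00744). By adjusted p alone 46.6% of all tested genes passed. R1881 replicate 3, at 45.8 CPM, lay within the vehicle range, and without R1881 replicate 2 the adjusted p was 0.0551. REST had a log2FC of 0.12 (adjusted p = 0.212) and SYP of 0.43 (95% CI −0.20 to 1.07, adjusted p = 0.254).

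NTS and SCG2, which encode peptides of secretory granules, had fewer counts in LNCaP with R1881 than with vehicle, too few to be tested after the filter. NTS had 16 counts with vehicle and 1 with R1881, a ratio of 15.4 (95% exact interval 2.40 to 647), and its libraries did not overlap. Without the filter on low counts NTS fell (edgeR log2FC −3.58, adjusted p = 0.0369), a fitted value that depends on the handling of zeros. SCG2 had 21 and 7 counts, a ratio of 2.89 (95% exact interval 1.18 to 8.05), in libraries that did not overlap (exact permutation p = 0.1, the smallest possible). R1881 replicate 1 held 6 of the 7 counts, and the other 2 R1881 libraries held 0 and 1. The separation was narrow, 0.328 CPM in R1881 replicate 1 against 0.350 CPM in vehicle replicate 1, a smaller library with 4 counts. NTSR1, the main neurotensin receptor, fell as well, from 3.15, 3.80 and 3.79 CPM to 1.92, 1.03 and 1.95 CPM (log2FC −1.13, edgeR adjusted p = 0.00294).

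In C4-2, 0 of 4 tested genes were differentially expressed with R1881 by edgeR or DESeq2 and 0 had an unadjusted p under 0.05, while 9.07% of all tested genes were differentially expressed and 32.8% passed the adjusted p alone. ENO2 had a log2FC of −0.27 (95% CI −0.56 to 0.01, edgeR adjusted p = 0.135), SYP of 0.24 (adjusted p = 0.647), SCG5 of 0.17 (95% CI −0.64 to 0.98, adjusted p = 0.78) and REST of −0.03 (95% CI −0.26 to 0.21, adjusted p = 0.886). The intervals of all 4 genes lie within 1 on the log2 scale, those of REST and ENO2 being the narrower. No difference of the R1881 effect between the lines passed for the 4, with 0 differentially expressed by edgeR or DESeq2 and 0 at an unadjusted p under 0.05, against 4.32% of all tested genes. The 95% intervals of the difference were −0.95 to 2.03 for SCG5 and −1.17 to 0.76 for SYP. Both leave room for a difference of 1 on the log2 scale. Those of REST (−0.45 to 0.13) and ENO2 (−0.28 to 0.49) do not. For ENO2 the difference was 0.11 (edgeR adjusted p = 0.777).

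The clearest differences were between the lines. With vehicle, 2 of the 4 tested genes were differentially expressed, against 24.2% of all 18684 tested genes, and with R1881 the same 2 genes against 23.8%. ENO2 was lower in C4-2 by a log2FC of −1.29 with vehicle (SE 0.133, 95% CI −1.56 to −1.01, edgeR adjusted p = 3.71e-08) and −1.18 with R1881 (SE 0.129, 95% CI −1.45 to −0.91, adjusted p = 8.31e-08). SCG5 was higher in C4-2 by 1.46 with vehicle (SE 0.496, 95% CI 0.43 to 2.49, adjusted p = 0.0151) and 2.00 with R1881 (SE 0.491, 95% CI 0.98 to 3.03, adjusted p = 0.00139). In counts SCG5 had 24 in C4-2 and 11 in LNCaP with vehicle, and 35 and 8 with R1881. SCG5 had not passed the filter in the LNCaP fit and entered the fit of both lines through its C4-2 libraries. The direction of its call, and so the share of 2 of 4, was thus shaped by the filter. Its difference with vehicle was lost without LNCaP vehicle replicate 1 (adjusted p = 0.0602) or C4-2 vehicle replicate 1 (adjusted p = 0.123).

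REST was also lower in C4-2, by −0.38 with vehicle (edgeR adjusted p = 0.00245) and −0.54 with R1881 (adjusted p = 5.74e-05), without reaching a log2FC of 1. SYP was lower by −0.55 with vehicle (adjusted p = 0.173) and by −0.76 with R1881 (SE 0.311, adjusted p = 0.0413). The SYP difference with R1881 passed in 12 of 18 fits that left out 1 library and was −0.17 (adjusted p = 0.819) with counts thinned to the smallest library. By adjusted p alone 58.9% of all tested genes passed with vehicle and 58.3% with R1881. NTS had 16 counts in LNCaP with vehicle and 0 in C4-2, and the 95% exact interval of the ratio of LNCaP to C4-2 began at 3.03. Without the filter on low counts, SCG5 with vehicle no longer passed (edgeR adjusted p = 0.0887) and NTS did (log2FC −5.45, adjusted p = 0.0229). Markers of other cell types moved with line and vehicle at a low level. The summed level of 3 leukocyte markers was 2.33 to 3.31 CPM in C4-2 with vehicle and 0 to 0.440 CPM in the other groups, with 1 of 3 markers averaging at least 1 CPM. That of 4 fibroblast markers was 28.3 to 36.7 CPM in C4-2 and 18.9 to 21.2 CPM in LNCaP with vehicle, with 2 of 4 at 0 in C4-2. With vehicle 1 of the 4 averaged at least 1 CPM in C4-2 and 2 in LNCaP. Of the 2 tested between the lines with vehicle, 1 was higher and 1 lower in C4-2 by adjusted p, and the lower 1 was differentially expressed. The part of these markers in the differences between the lines was not tested.

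The partners of REST were present throughout. The list of 23 REST corepressor genes (CoREST and SIN3 subunits, histone deacetylases, methyltransferases and others, without KDM1A) had every gene tested and none averaging under 1 CPM. With dual knockdown in LNCaP, 3 rose and 3 fell (median log2FC 0.0020, all genes 0.00098), where 8.27% of all tested genes were higher and 5.89% lower by adjusted p. The 3 CoREST scaffold genes moved in both directions, since RCOR1 and RCOR3 fell by 0.22 and 0.25 on the log2 scale while RCOR2 rose by 0.79 (edgeR adjusted p = 0.0416), from a mean of 1.10 to 1.90 CPM in libraries that did not overlap. HMG20B, a further CoREST subunit, rose by 0.38. In C4-2, 1 rose and 3 fell (median −0.10, all genes 0.0055), where 12.7% of all tested genes were higher and 10.8% lower. Over fits that left out 1 library, the counts ran from 1 to 6 higher and 0 to 3 lower in LNCaP, where each of the 9 libraries moved a count by over 1.5-fold. In C4-2 they ran from 0 to 1 higher, with 0 without any R1881 library or dual knockdown replicate 1. The lower count in C4-2 was 1 without R1881 replicate 2 or dual knockdown replicate 3, and 5 without dual knockdown replicate 1. No gene of the list was differentially expressed with dual knockdown in either line by edgeR or DESeq2, with 10 and 9 at an unadjusted p under 0.05 in LNCaP and C4-2.

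With R1881, 1 corepressor gene rose and 12 fell in LNCaP (median −0.17, all genes −0.04), and 2 rose and 8 fell in C4-2 (median −0.10, all genes −0.02). By adjusted p alone, 23.5% of all tested genes were higher and 23.2% lower in LNCaP, and 17.1% were higher and 15.7% lower in C4-2. In C4-2 the lower count was 4 without vehicle replicate 2 or R1881 replicate 1 and 5 without R1881 replicate 3, and the higher count was 1 in 6 of 9 fits that left out 1 library, with vehicle replicate 1 or 2, any R1881 library or dual knockdown replicate 3 left out. RCOR2, the CoREST form associated with neural cells, was the 1 gene differentially expressed in each line. It went from 4.81, 4.36 and 4.50 CPM to 1.26, 0.879 and 1.15 CPM in LNCaP (log2FC −2.05, edgeR adjusted p = 1.34e-06). In C4-2 it went from 3.31, 4.01 and 3.79 CPM to 1.54, 1.24 and 1.78 CPM (log2FC −1.28, adjusted p = 0.00116). Its libraries did not overlap in either line, and RCOR1, the commoner form, fell by 0.17 in LNCaP.

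Well-known targets of REST were examined next. Of 24 such genes, 12 averaged under 1 CPM, and 12 were tested in LNCaP and 14 in C4-2. With dual knockdown in LNCaP 0 passed by edgeR or DESeq2, and 0 had an unadjusted p under 0.05 (median log2FC 0.05). Few genes moved there, as 0.286% of all tested genes were differentially expressed and 14.2% passed the adjusted p alone. In C4-2, 0 rose and 5 fell (median −0.28, all genes 0.0055), where 10.8% of all tested genes were lower by adjusted p. VGF, a granule protein and neuropeptide precursor, fell from 12.5, 10.8 and 10.8 CPM to 6.47, 3.84 and 2.74 CPM (log2FC −1.38, SE 0.214, edgeR adjusted p = 0.000375). SYT4, a synaptotagmin of vesicle membranes, fell from 3.52, 3.48 and 3.49 CPM to 1.34, 1.65 and 1.37 CPM (log2FC −1.27, SE 0.271, adjusted p = 0.00376). STMN3 and CELSR3 fell by 0.93 and 0.66 on the log2 scale. The number that fell was 4 to 6 over fits that left out 1 library. The summed level of 4 fibroblast markers also moved, from 17.5 to 24.2 CPM per library with R1881 to 26.6 to 36.3 CPM with dual knockdown in C4-2, with 1 of 4 averaging at least 1 CPM and 1 of 4 at 0 in each group, and its part in the list changes was not tested.

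R1881 moved the same list in both directions. The fibroblast markers moved with R1881 too, from 18.9 to 21.2 CPM per library to 7.54 to 11.6 CPM in LNCaP (2 and 1 of 4 averaging at least 1 CPM, 1 of 4 at 0) and from 28.3 to 36.7 CPM to 17.5 to 24.2 CPM in C4-2 (1 of 4 averaging at least 1 CPM, 2 and 1 of 4 at 0), and their part was not tested. In LNCaP 3 of 12 rose and 4 fell (median −0.26), where 23.5% of all tested genes were higher and 23.2% lower by adjusted p. The 4 became 2 without vehicle replicate 1 or R1881 replicate 3 and 1 without R1881 replicate 2. In C4-2 1 of 14 rose and 1 fell (median −0.21), below the 17.1% and 15.7% of all tested genes. The fall was lost without vehicle replicate 2 or R1881 replicate 1 or 2, and without vehicle replicate 3, the smallest library, 2 rose and 2 fell. SYT4 fell in LNCaP from 208, 218 and 199 CPM to 85.6, 99.7 and 87.3 CPM (log2FC −1.22, edgeR adjusted p = 2.15e-10). In C4-2, where its level was far lower, it rose from 1.29, 1.95 and 0.583 CPM to 3.52, 3.48 and 3.49 CPM (log2FC 1.26, adjusted p = 0.00357). The 0.583 CPM, in vehicle replicate 3, was 2 counts of SYT4. VGF rose in LNCaP from 0.350, 0.232 and 0.275 CPM to 2.08, 1.61 and 1.09 CPM (log2FC 2.49, adjusted p = 0.000104). UNC13A, which primes synaptic vesicles, and L1CAM, a neural adhesion molecule, rose in LNCaP by 1.40 and 1.36 on the log2 scale (adjusted p = 2.34e-05 and 0.00852). In LNCaP with vehicle VGF had 4, 5 and 5 counts and L1CAM 6, 7 and 10, at or under the filter's minimum count of 10. VGF and L1CAM passed the filter through libraries with R1881. Their rises, and so the count of 3 that rose, are not independent of the filter.

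**Figure D4:**
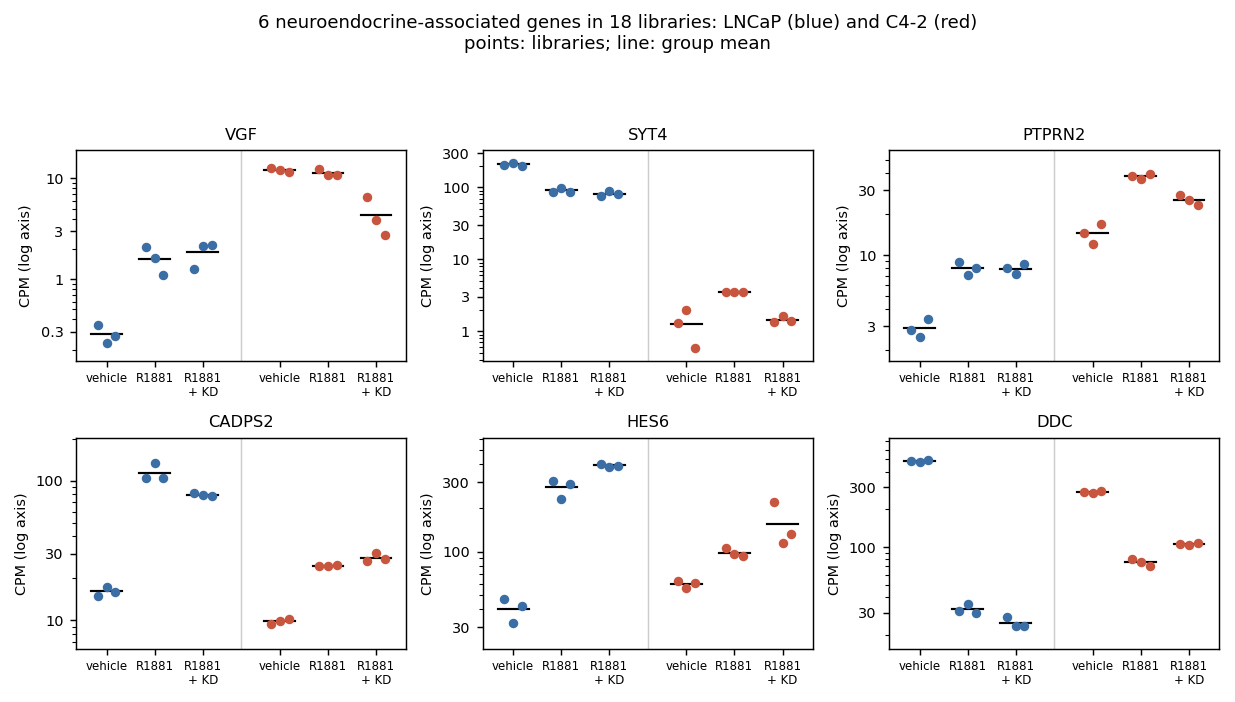
CPM on log axes of 6 genes of the lists in each of 18 libraries (points) with group means (lines), LNCaP in blue and C4-2 in red, KD meaning dual knockdown. VGF and SYT4 are lower with dual knockdown in C4-2, at 4.35 and 1.45 CPM on average, and DDC is lower with R1881 in both lines.

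Genes of secretory granules and of prohormone processing were next compared. Of 16 genes, 10 were tested in LNCaP and 11 in C4-2. With R1881 in LNCaP, 6 rose and 2 fell (median log2FC 0.86), beside 23.5% and 23.2% of all tested genes, and 5 of those that rose were differentially expressed, where 5.68% of all tested genes were differentially expressed and higher. The 5 include VGF, which had 4, 5 and 5 counts with vehicle and passed the filter on low counts through libraries with R1881. They also include PTPRN (log2FC 1.68, edgeR adjusted p = 0.00636), which averaged under 1 CPM. With a mean of at least 1 CPM required, 9 genes were tested and 5 rose. The count of 5 is thus not independent of the filter. CADPS2, which primes dense-core vesicles, rose from 15.1, 17.3 and 16.1 CPM to 105, 135 and 104 CPM (log2FC 2.80, edgeR adjusted p = 1.95e-13). RAB27A, a GTPase of granule docking, rose by 2.04 on the log2 scale. PTPRN2, a granule membrane protein, rose by 1.45 in LNCaP and 1.44 in C4-2. In C4-2, 3 rose and 1 fell (median −0.10), beside 17.1% and 15.7% of all tested genes, and the fall was lost without vehicle replicate 2 or R1881 replicate 1.

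With dual knockdown in LNCaP, 1 granule gene rose and 1 fell (median 0.05), namely PCSK1N, an inhibitor of prohormone convertase, by 0.83 and CADPS2, which fell by 0.51, beside 8.27% and 5.89% of all tested genes. The rise of PCSK1N was lost without R1881 replicate 2 or 3 or dual knockdown replicate 1 or 2. In C4-2, 1 rose and 5 fell (median −0.19), where 12.7% of all tested genes were higher and 10.8% lower. These counts were the same in each fit that left out 1 library, while after thinning to the smallest library 0 rose and 5 fell. Besides VGF, which both lists hold, SYT7, RAB3A, PTPRN2 and CPE fell by 0.96, 0.66, 0.58 and 0.45 on the log2 scale. PAM, which amidates peptide hormones, rose by 0.65.

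Regulators of the neuroendocrine state were mostly near 0, with 14 of 17 averaging under 1 CPM and 5 tested in each line. HES6, a HES family factor that promotes neural differentiation, rose with R1881 in LNCaP from 47.2, 32.1 and 41.97 CPM to 309, 231 and 293 CPM (log2FC 2.78, edgeR adjusted p = 5.87e-12). It rose further with dual knockdown by 0.52 in LNCaP and 0.65 in C4-2, where 1 of 3 libraries, at 219 CPM, stood above the others at 115 and 133 CPM. The rise in C4-2 was lost without R1881 replicate 2 or 3. With dual knockdown 1 of the 5 rose and 0 fell in LNCaP, beside 8.27% and 5.89% of all tested genes. In C4-2 with dual knockdown 1 rose and 1 fell, beside 12.7% and 10.8%. The 1 that fell was ONECUT2, by 0.60 on the log2 scale (adjusted p = 0.00268). In LNCaP with R1881 2 of the 5 rose and 2 fell, beside 23.5% and 23.2% of all tested genes. Without vehicle replicate 2 or 3 or R1881 replicate 2 the number that fell was 1, and without R1881 replicate 1 it was 0, while without vehicle replicate 3 only 1 rose. In C4-2 1 rose and 1 fell, beside 17.1% and 15.7%, and the fall was lost without vehicle replicate 1 or R1881 replicate 1. Of 18 other neuroendocrine markers, 13 averaged under 1 CPM, and 7 were tested in LNCaP and 8 in C4-2. With R1881 0 rose and 2 fell in each line. Beside this, 23.5% of all tested genes were higher and 23.2% lower in LNCaP, and 17.1% and 15.7% in C4-2. Over fits that left out 1 library, 2 to 3 fell in LNCaP and 1 to 2 in C4-2. DDC, which makes dopamine and serotonin from their precursors, fell with R1881 from 483, 477 and 494 CPM to 30.9, 34.9 and 29.8 CPM in LNCaP (log2FC −3.95, adjusted p = 1.21e-16) and by 1.86 in C4-2. SEZ6, a neuronal surface protein, fell by 1.22 in LNCaP. With dual knockdown in LNCaP, 1 of these 7 rose (DLL3, by 0.59) and 1 fell (DDC, by 0.35), beside 8.27% and 5.89% of all tested genes. Each of these 2 counts ran from 0 to 1 over fits that left out 1 library. In C4-2 1 of 8 rose with dual knockdown (DDC, by 0.47) and 0 fell, beside 12.7% and 10.8%.

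Relatives of the 9 genes were set beside SYP and ENO2. SYPL1, a synaptophysin-like protein found outside neurons, rose with dual knockdown in C4-2 from 115, 108 and 103 CPM to 216, 229 and 231 CPM (log2FC 1.04, SE 0.0800, edgeR adjusted p = 1.76e-06). It also rose by 0.30 in LNCaP. The SYP estimate with dual knockdown in C4-2 had the same sign without passing (log2FC 0.24, edgeR adjusted p = 0.63). ENO1, the common enolase, rose by 0.31 with dual knockdown and by 0.34 with R1881 in LNCaP, where ENO2 fell with R1881. ENO3 was lower with R1881 as ENO2 was, with a log2FC of −0.46 in C4-2 (edgeR adjusted p = 0.0109). In LNCaP ENO3 had −0.23 and did not pass (adjusted p = 0.0589). With dual knockdown 3 of 8 tested relatives rose and 1 fell in LNCaP, beside 8.27% and 5.89% of all tested genes, and the fall was lost without R1881 replicate 2 or dual knockdown replicate 1. In C4-2 2 of 8 rose and 1 fell, beside 12.7% and 10.8%. With R1881 3 of 8 rose and 1 fell in each line. Beside this, 23.5% of all tested genes were higher and 23.2% lower in LNCaP, and 17.1% and 15.7% in C4-2. Over fits that left out 1 library, 1 to 2 fell in LNCaP, while 3 to 4 rose and 0 to 2 fell in C4-2.

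**Figure D5:**
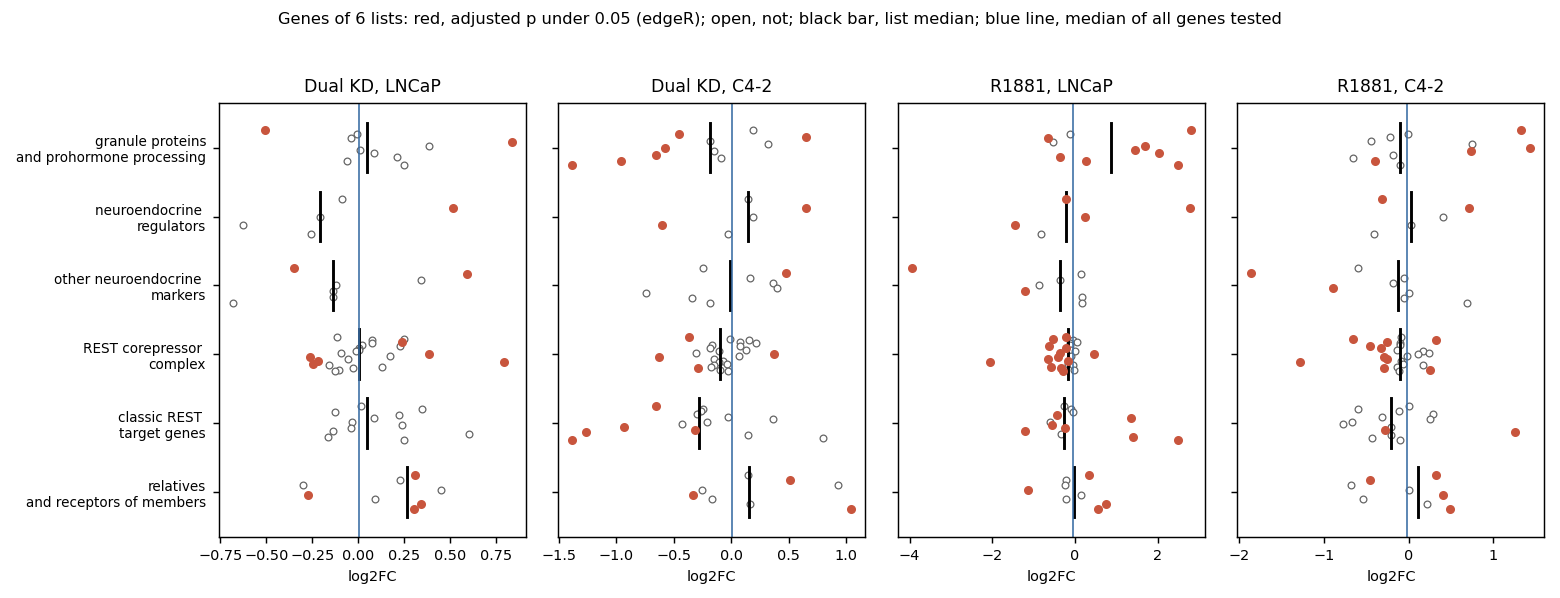
Log2 fold change of each tested gene in 6 lists for dual knockdown and R1881 in LNCaP and C4-2, each panel with its own axis. Filled points passed an adjusted p of 0.05 in edgeR, black bars are list medians and the blue line is the median of all tested genes; classic REST targets hold 5 filled points in C4-2 dual knockdown, all below 0.

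The promoters of the genes were searched for the RE1 element and for motifs of other factors. RefSeq promoters of GRCh38.p14, 250 bases before to 50 after the start, were found for REST (2 starts), ENO2, SYP, CHGA, SCG5 and NTS. The core of RE1 was written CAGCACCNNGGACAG and searched on both strands. It matched exactly in 18 of 35116 promoters (0.0513%), and in 79 (0.225%) with up to 1 mismatch. None of the 6 genes with a promoter had either, which says only that these letters are not in this window. Among the REST target list, SYN1 and GRIA2 had exact matches. SYN1 had 38 counts and GRIA2 0 counts over all 18 libraries. VGF, which fell with dual knockdown in C4-2, had a match with 1 mismatch on the strand opposite to the gene, starting 6 bases before its start. The 2 windows are shown because they hold the element, each on the strand of its gene, with the RE1 match and the cyclic AMP response element TGACGTCA in capitals.
SYN1, chrX:47620008-47620107 (minus strand): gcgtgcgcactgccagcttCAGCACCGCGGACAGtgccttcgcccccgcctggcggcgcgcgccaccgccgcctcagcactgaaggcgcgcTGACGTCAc
VGF, chr7:101165561-101165669 (minus strand): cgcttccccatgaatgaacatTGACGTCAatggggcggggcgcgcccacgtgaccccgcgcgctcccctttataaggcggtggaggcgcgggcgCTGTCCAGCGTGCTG

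Other motifs were searched on both strands too. TGACGTCA was in 649 promoters (1.85%) and, among the 6 genes, in that of CHGA. Its first 5 letters, TGACG, were in 8622 promoters (24.6%) and in those of CHGA, NTS and SCG5. The AP-1 motif TGAGTCA was in 1738 promoters (4.95%) and in those of REST and ENO2. The following stretches are shown because they carry the matches nearest to the starts of 3 genes whose levels differed widely, with the match in capitals. In ENO2 it is read as TGACTCA, since TGAGTCA lies on the other strand.
CHGA, chr14:92923050-92923149 (plus strand): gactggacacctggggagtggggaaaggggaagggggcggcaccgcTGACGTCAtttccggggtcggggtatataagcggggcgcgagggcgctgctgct
SCG5, chr15:32641610-32641709 (plus strand): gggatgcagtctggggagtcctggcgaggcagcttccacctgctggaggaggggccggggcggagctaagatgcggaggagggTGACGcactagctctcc
ENO2, chr12:6914460-6914579 (plus strand): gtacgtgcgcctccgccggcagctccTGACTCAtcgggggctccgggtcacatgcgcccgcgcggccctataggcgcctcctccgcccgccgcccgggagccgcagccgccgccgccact

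The promoters also differed in base composition. G and C made up 76% and 79.3% of the windows at both starts of REST and 75.0% for ENO2, with 44, 46 and 38 CpG sites. SYP and CHGA had 71.3% and 69.3% with 35 and 24 sites, SCG5 had 58.0% with 11, and NTS 48.3% with 2. Over all promoters the medians were 58.7% and 14 sites. The 2 genes with the highest levels, REST and ENO2, thus had the windows richest in G and C, while SYP at 0.378 CPM per kb was close behind them.

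For the 3 genes averaging at least 1 CPM, the genes most like them were sought by the mean absolute difference of centred group-mean log2 CPM over the 6 groups, among 14901 genes. For REST these were ZNF430 (0.0300), ZNF468 (0.0301) and PHC3 (0.0388), against a median of 0.366 over all genes. For ENO2 they were ZDHHC11 (0.0646), ZNF799 (0.0657) and SUCLG2-AS1 (0.0705), against 0.727. For SYP they were LRRC46 (0.0450), AC005034.3 (0.0547) and KRTCAP3 (0.0656), against 0.491. These are likenesses of 6 group means and describe these libraries only.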

How the data were processed

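RNA Seq was performed by the authors on poly(A) RNA of LNCaP and C4-2 cells. Reads were trimmed with Trim Galore, aligned to GRCh38 with STAR and counted per Ensembl 83 gene with featureCounts v1.5.0-p1, without strand options. The deposited values are raw counts of read pairs per gene, and 0 columns of other samples were used. Symbols were taken from GENCODE 29 (57055 of 60675 genes).

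Groups followed the titles. The 9 libraries of a line were fitted together (17162 genes in LNCaP, 16965 in C4-2), and all 18 together for differences between lines (18684 genes). TMM factors, filterByExpr (minimum count 10, minimum total 15) and the 2-sided quasi-likelihood F-test of edgeR 4.0.16 (R 4.3.3, limma 3.58.1) with Benjamini-Hochberg adjustment over all tested genes were used. CPM used TMM factors over 18 libraries. Tables were made with pandas 2.3.3, scipy 1.17.1 and numpy 2.4.6 in Python 3.11.15, and figures with matplotlib 3.10.9. Single genes were compared by 2-sided exact permutation tests, and summed counts by 95% exact intervals. A count of 0 over a group was taken to allow up to 3 counts. Depth was 3182604 to 20154243 counts per library. Replicates differed by more than counting error (chi-square per gene 2.41 to 16.9 over 18 pairs).

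The 9 genes, the lists and the tests were chosen with earlier results of these data known. From each list, the named genes with values per library were those differentially expressed with dual knockdown or R1881 that averaged at least 1 CPM, at most 4 per list and comparison. Other list genes were named after their values were seen, from those passing the adjusted p. Promoter sequences were those of RefSeq (GRCh38.p14), without an entry for INSM1, CHGB and SCG2.

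Alternatives were adjusted p alone, RLE factors, the Wald test of DESeq2 1.42.0, edgeR's likelihood ratio test, no filter, a mean of at least 1 CPM, thinning to the smallest library, a fit of the compared groups alone, a block for replicate number, and each library left out in turn. The same alternatives were applied to named list genes and list counts after seeing the data. The tests were tested on simulated data. At a simulated log2FC of 1.5, 86 of 98 changed genes were recovered for dual knockdown in LNCaP (16754 genes), 81 of 99 in C4-2 (16553 genes), 86 of 96 for R1881 in LNCaP (16803 genes) and 70 of 98 in C4-2 (16598 genes). For the differences of effect between lines, 66 of 97 were recovered for dual knockdown and 68 of 94 for R1881. Each comparison called 3 to 10 unchanged genes. Changes smaller than 1.5 were not simulated.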

Additional observations from a re-analysis of the deposited data

Results flagged for a closer look

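The effects below differed between the lines in edgeR's interaction test over all 18 libraries (C4-2 minus LNCaP on the log2 scale, adjusted over all tested genes). They concern genes of the lists, and none of REST, SYP, ENO2 and SCG5 differed past the adjusted p. No explanation was tested.

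For dual knockdown, the effect was lower in C4-2 for VGF (−1.61, adjusted p = 0.00806), SYT4 (−1.10, adjusted p = 0.00107) and PTPRN2 (−0.56, adjusted p = 0.0386). It was higher in C4-2 for DDC (0.85, adjusted p = 1.81e-05), SYPL1 (0.76, adjusted p = 1.18e-05) and CADPS2 (0.72, adjusted p = 0.000775). DDC fell by 0.35 in LNCaP and rose by 0.47 in C4-2. After thinning to the smallest library, the differences of CADPS2 (0.55, adjusted p = 0.0912), PTPRN2 (−0.88, adjusted p = 0.0663) and VGF (−1.61, adjusted p = 0.112) no longer passed. That of PTPRN2 was also lost without any of 9 libraries in turn, with values from −0.59 to −0.49 and adjusted p from 0.0558 to 0.10.

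For R1881, the effect was lower in C4-2 for VGF (−2.61, adjusted p = 0.000605), HES6 (−2.07, adjusted p = 3.21e-06), UNC13A (−1.86, adjusted p = 0.00239), CADPS2 (−1.48, adjusted p = 2.11e-07) and RAB27A (−1.32, adjusted p = 1.59e-05). It was higher in C4-2 for SYT4 (2.41, adjusted p = 3.29e-08) and DDC (2.08, adjusted p = 4.79e-12). SYT4 moved in opposite directions in the lines and DDC fell in both. After such thinning, the UNC13A difference no longer passed (−1.68, adjusted p = 0.263).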

How the results depend on the processing

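Depth limited SCG2, CHGA, CHGB, INSM1 and NTS, which had too few counts to be tested after the filter. The number of the 9 genes differentially expressed was 0 for dual knockdown, R1881 and both differences between lines under every alternative, with 2 kinds of exception. By adjusted p alone it was 1 (REST) for dual knockdown and 1 (ENO2) for R1881 in LNCaP, and without a filter it was 1 (NTS) for R1881 in LNCaP. Between the lines the number was 2 with vehicle and with R1881. It was 1 in each with a mean of at least 1 CPM, with thinning or with only the groups compared, because SCG5 was then not tested. By adjusted p alone it was 3 with vehicle and 4 with R1881. Without a filter the 2 with vehicle were ENO2 and NTS in place of ENO2 and SCG5. Leaving out 1 library in turn gave 1 to 2 with vehicle, 2 to 2 with R1881 and 0 to 0 elsewhere.

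The sign of a log2FC turned only for values that did not pass the adjusted p. With thinning, the differences between lines of SYP became −1.22 for dual knockdown and 0.37 for R1881, and without a filter REST with R1881 in C4-2 became 2.46e-05. Leaving out 1 library in turn gave SYP with dual knockdown −0.013 to 0.43 in LNCaP and −0.026 to 0.39 in C4-2. In C4-2 with R1881 it gave REST −0.12 to 0.048 and SCG5 −0.047 to 0.45. For the differences between lines it gave SYP −0.16 to 0.27 for dual knockdown and −0.55 to 0.073 for R1881, and ENO2 −0.038 to 0.27 for R1881. The cause was not tested. Over these fits the log2FC of REST with dual knockdown in LNCaP ran from −0.34 to −0.20 and that of ENO2 with R1881 in LNCaP from −0.55 to −0.29. ENO2 with dual knockdown in C4-2 passed in 2 of 9 such fits (adjusted p 0.0269 to 0.296), and its difference between lines in 2 of 18 and without a filter (adjusted p = 0.0314).

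Over all genes, the number differentially expressed with dual knockdown in LNCaP was 49 with edgeR, 9 with DESeq2, 92 with the likelihood ratio test and 14 to 73 without 1 library. In C4-2 it was 669, and 311 with thinning.

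Deviations of same-numbered libraries correlated at −0.074 to 0.072 within the lines and at −0.338 to 0.278 between the lines with vehicle. No shared shift was thus seen within a line, which cannot show whether same-numbered libraries were handled as pairs. With replicate number as a block, 0 of the 9 genes were differentially expressed with dual knockdown or R1881 in either line, and 2 between the lines with vehicle and with R1881. With the block REST had a log2FC of −0.27 (edgeR adjusted p = 0.0253) for dual knockdown in LNCaP, and ENO2 of −0.40 (adjusted p = 0.00257) for R1881 in LNCaP.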
